A study of Mus musculus with 12 samples.

Results

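The cytosolic ribosomal protein genes are described here in the neonatal mouse brainstem after repeated morphine. They were chosen by symbol, as rows of the count table whose names follow the Rpl, Rps, Rplp or Rpsa pattern of cytosolic ribosomal proteins, with processed copies named -ps and the Rps6k kinases left out. The pattern gave 90 of the 55418 genes, 54 with large subunit symbols and 36 with small subunit symbols. GENCODE M21 annotates 84 of them as protein coding and 6 as processed pseudogenes. The filter on low counts kept 82 members for the comparison in females, 82 for males, and 82 for both sexes together. RNA came from the brainstem (medulla and pons) of 12 outbred CFW mice at P15, 1 library per mouse. There were 3 saline females (numbered 4 to 6), 3 saline males (1 to 3), 3 morphine females (1 to 3), and 3 morphine males (4 to 6). Morphine mice had received 15 mg/kg morphine subcutaneously 2 times daily from P1 to P14, saline mice received saline on the same schedule, and all were sampled 16 h after the last injection. The study split litters between the treatments, and the labels do not give the dam.

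Cytosolic ribosomes translate the mRNAs of the nucleus, and each of their proteins is encoded by its own gene. Large subunit proteins surround the peptidyl transferase centre, small subunit proteins surround the decoding centre, and the P proteins form a stalk on the large subunit that recruits translation factors. Their mRNAs are known for a 5' terminal oligopyrimidine tract, a C at the start of the transcript followed by a run of C and T, through which mTORC1 signalling acts on their translation.

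RefSeq start sites on GRCm38.p6 were matched for 65 of the 90 members. Of the 77 promoter windows of these genes, 14 (18.2%) had a C at the annotated start followed by at least 4 C or T, against 2.51% of 32851 windows of all genes. A run of at least 8 C or T within 25 bases of the start was in 35 of the 77 (45.5%), against 19.7% of all windows. The sequences below run from 25 bases before the start to 24 bases after it, with the pyrimidine run from the start in capitals. They are shown because the same start motif was found in members with very unequal spread between mice. The first 4 had the largest spread within groups and the last 4 the smallest among the members considered. Considered were members with the start motif and at least 10 CPM (counts scaled to the depth of the library) on average. Members of a single chromosome were left out of this choice, so a member with the start motif and a larger or smaller spread can be missing.
Rplp2, chr7:141447626-141447675, + strand: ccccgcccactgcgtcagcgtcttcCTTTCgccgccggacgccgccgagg
Rps21, chr2:180257354-180257403, + strand: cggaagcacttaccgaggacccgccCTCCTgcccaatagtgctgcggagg
Rps18, chr17:33955641-33955690, - strand: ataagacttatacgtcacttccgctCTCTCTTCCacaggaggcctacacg
Rpl28, chr7:4792940-4792989, + strand: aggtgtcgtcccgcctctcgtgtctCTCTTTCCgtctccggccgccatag
Rps15a, chr7:118116123-118116172, - strand: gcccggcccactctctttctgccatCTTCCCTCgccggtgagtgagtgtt
Rpl15, chr14:18270962-18271011, - strand: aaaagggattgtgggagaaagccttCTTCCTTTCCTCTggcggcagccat
Rps27, chr3:90213624-90213673, - strand: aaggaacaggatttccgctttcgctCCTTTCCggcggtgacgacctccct
Rpl35a, chr16:33056457-33056506, + strand: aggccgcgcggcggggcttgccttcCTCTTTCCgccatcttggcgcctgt

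The run was 5 bases long in *Rplp2* and *Rps21*, 9 in *Rps18*, 8 in *Rpl28*, 8 in *Rps15a*, 13 in *Rpl15*, 7 in *Rps27*, and 8 in *Rpl35a*. Among the 27 tested members with the smallest spread, 4 of 20 genes with a promoter window had the start motif. Among the 27 with the largest spread 5 of 17 had it. Of the other motifs searched on both strands of the 300-base windows, CCGGAA, the core of ETS factor sites, was in 46.8% of member windows and 14.9% of all windows. GGGCGG, the GC box, was in 59.7% and 35.7%. AAGATGGC, the core of YY1 sites, was in 10.4% and 2.75%, and TATAA was in 24.7% and 24.9%. AAGATGGC was found in 5 of the 20 genes of the smallest spread and in 0 of the 17 of the largest.

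Library totals ran from 27850565 to 48097947 counts. All 12 markers of the hindbrain were at 1 CPM or more on average, against 1 of 4 forebrain markers and 1 of 7 thoracic and lumbar Hox genes, so the labelled tissue carried its own markers. The library labelled morphine male 6 went against its label, with *Xist* at 379.9 CPM, where the females had 547 to 970.5 CPM and the other males 0.398 to 2.71 CPM. Its Y-linked *Ddx3y* was at 12.8 CPM, against 117.8 to 198.8 CPM in the other males and 0.0576 to 0.729 CPM in the females. The library lay between the sexes for both genes. The main results in males are therefore also given without it. The first principal component of the 12 libraries held 40.2% of the variance, with saline males 1 and 2 at its high end and saline male 3 at its low end. Along it, genes with a high GC content in their exons (55.2% or more) moved apart from those with a low one (44.1% or less). The mean log2 deviation of the high-GC genes minus that of the low-GC genes, members left out, was 0.80 and 1.02 in saline males 1 and 2, -0.96 in saline male 3, and -0.60 to 0.47 in the other mice.

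Levels of the members were compared as CPM per kb of exon, averaged over the 12 mice. The length used was that of all annotated exons of a gene, which can exceed the length of its mRNA. It was 977 bases in *Rps3a1* and 4080 in *Rps20*. Ranks, medians, and counts per kb therefore also depend on how many exons are annotated for a gene. The highest were *Rpl4*, a protein of the exit tunnel, at 196 ± 24.3 (SD, n = 12), *Rps3a1* at 187 ± 22.1, and the X-linked *Rps4x* at 158 ± 19.5. *Rpl4* and *Rps3a1* differed by less than the spread of either. The order depended on dividing by exon length: by CPM alone *Rpl4* stayed first of the 82 and *Rps4x* was in place 2, but *Rps3a1* was in place 10, *Rpl17* in place 12, and *Rps15* in place 37. Next came *Rpl17* at 127 ± 15.5 and *Rps15* at 126 ± 84.0 CPM per kb, which also could not be ordered, since the spread of *Rps15* took in all the levels above. In all, 10 of the 82 tested members were at 100 CPM per kb or more and 8 were under 10. The median was 35.5 CPM per kb over the large subunit members and 41.1 over the small subunit members. The lowest were *Rpl24* at 0.331 ± 0.142, *Rpl3l* at 0.400 ± 0.133, *Rps10* at 0.647 ± 0.249, *Rpl13a* at 3.39 ± 0.619, and *Rps4l* at 3.55 ± 3.07 CPM per kb. *Rpl24*, *Rps10*, and *Rpl13a* encode core proteins that every ribosome is known to carry, and their low counts are taken up again with the gene copies.

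**Figure D1:**
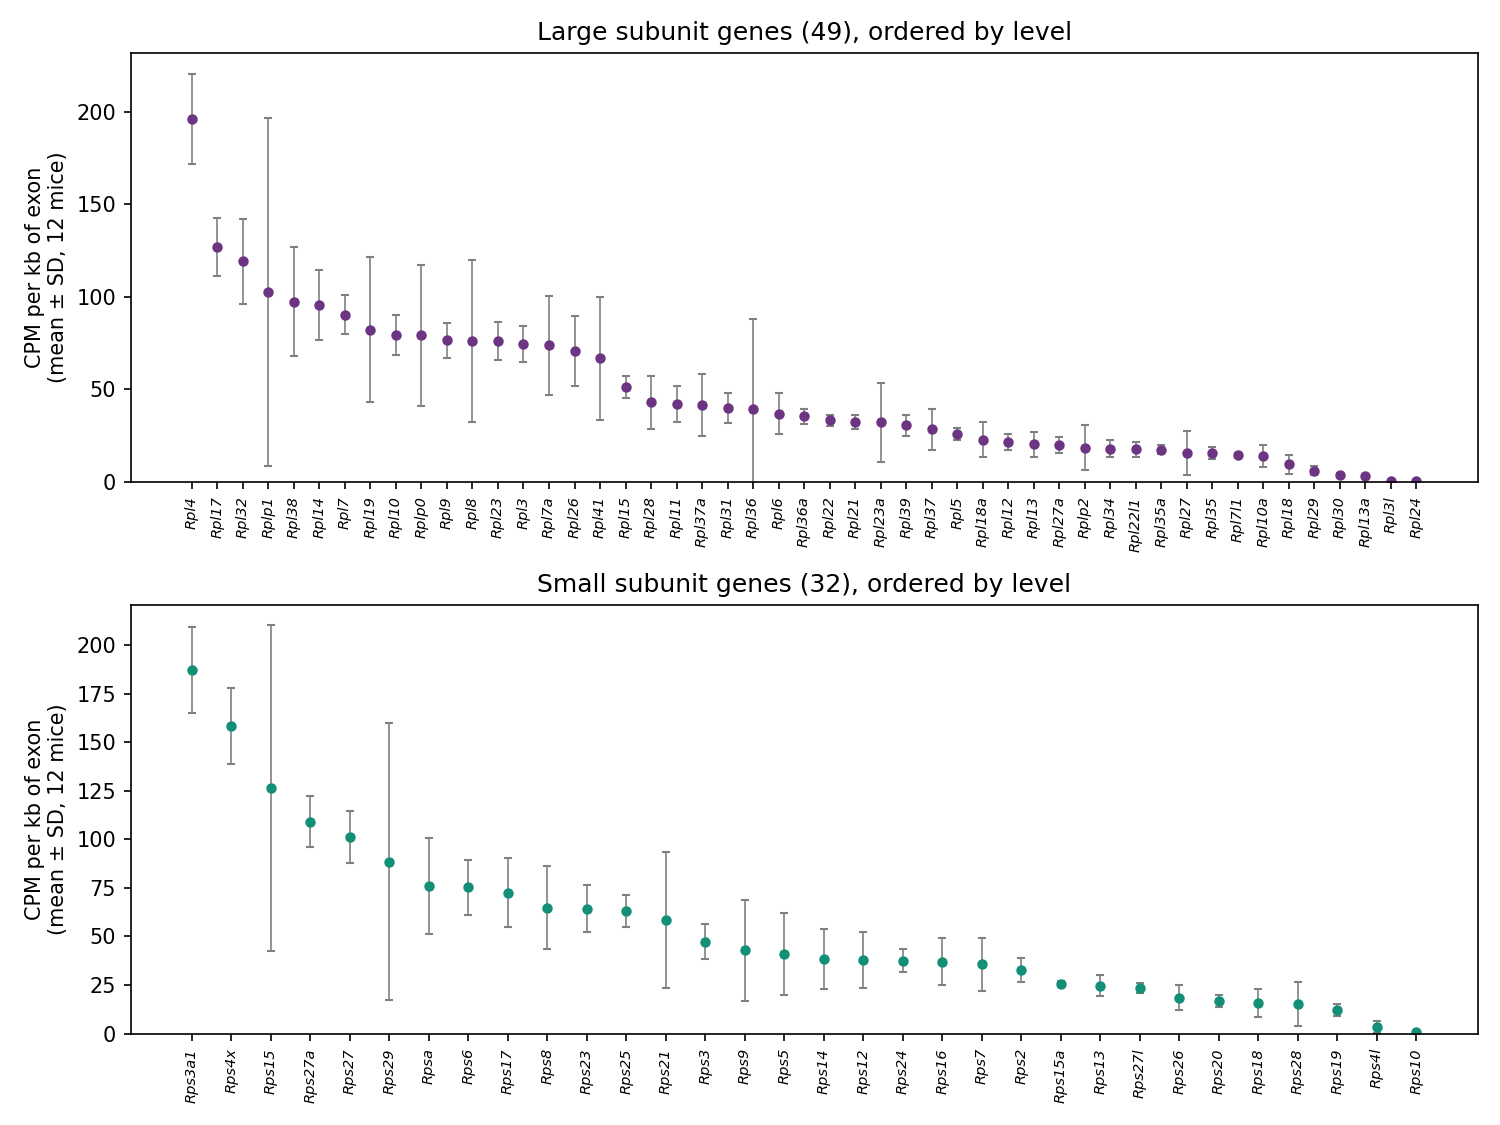
Mean level of 81 of the 82 tested members over the 12 mice, in CPM per kb of exon on linear axes, with bars of 1 SD that are cut at 0. Large subunit genes are in the upper panel and small subunit genes in the lower, each ordered by level. *Rpl4* at 196 and *Rps3a1* at 187 stood highest, and *Rpl36*, *Rplp1*, and *Rps4l* had the widest bars for their level.

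The members together took 0.585% to 0.994% of the counts of a library. Their summed level was 10365 CPM in saline male 1, 9963 in saline male 2, and 6015 in saline male 3. In morphine males 4, 5, and 6 it was 6562, 6361, and 7372 CPM. The range of the saline males therefore took in all 3 morphine males. In saline females 4, 5, and 6 the sum was 8067, 6834, and 5717 CPM, and in morphine females 1, 2, and 3 it was 8155, 6505, and 8726 CPM, and these ranges overlapped as well. Group means were 6872 ± 1175 (SD, n = 3) in saline females, 7795 ± 1154 in morphine females, 8781 ± 2404 in saline males, and 6765 ± 535 in morphine males. The saline males thus had the highest mean and a SD larger than the distance between any pair of group means. In bulk RNA, fewer cells of a type and less RNA per cell cannot be told apart.

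Single members followed the same mice. The highest of the 12 values fell in saline male 1 for 30 of the 82 members, in saline male 2 for 25, and in morphine female 3 for 20. The lowest fell in saline male 3 for 40 members and in saline female 6 for 22. The mean over members of the log2 level, taken as a deviation from each member's mean over the mice, was 0.61 and 0.57 in saline males 1 and 2, -0.46 in saline male 3, and -0.47 in saline female 6. It lay between -0.24 and 0.20 in the other 8 mice. Saline males 1 and 2, with the largest gap of high-GC over low-GC genes, were thus the highest for the members, and saline male 3 and saline female 6, with the smallest gaps, the lowest. Morphine male 6 had the next largest gap, 0.47, and a member deviation of 0.07. The summed level of 6 oligodendrocyte markers, all at 1 CPM or more on average, was 55700 and 58164 CPM in saline males 1 and 2 and 32307 to 47782 CPM in the other 10 mice, and its part in the levels of the members was not tested. With loess offsets for GC content and exon length, the deviations were 0.42 and 0.33 in saline males 1 and 2, -0.26 in saline male 3, and -0.29 in saline female 6.

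The subunits moved together. In each mouse, the mean deviation of the 49 large subunit members minus that of the 33 small subunit members lay between -0.10 and 0.05, with the lowest values in saline males 1 and 2 (-0.07 and -0.10). The group means of this difference were 0.026 ± 0.035 in saline females, 0.016 ± 0.027 in morphine females, -0.045 ± 0.071 in saline males, and 0.0031 ± 0.024 in morphine males. None of these means lay farther from 0 than its SD.

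**Figure D2:**
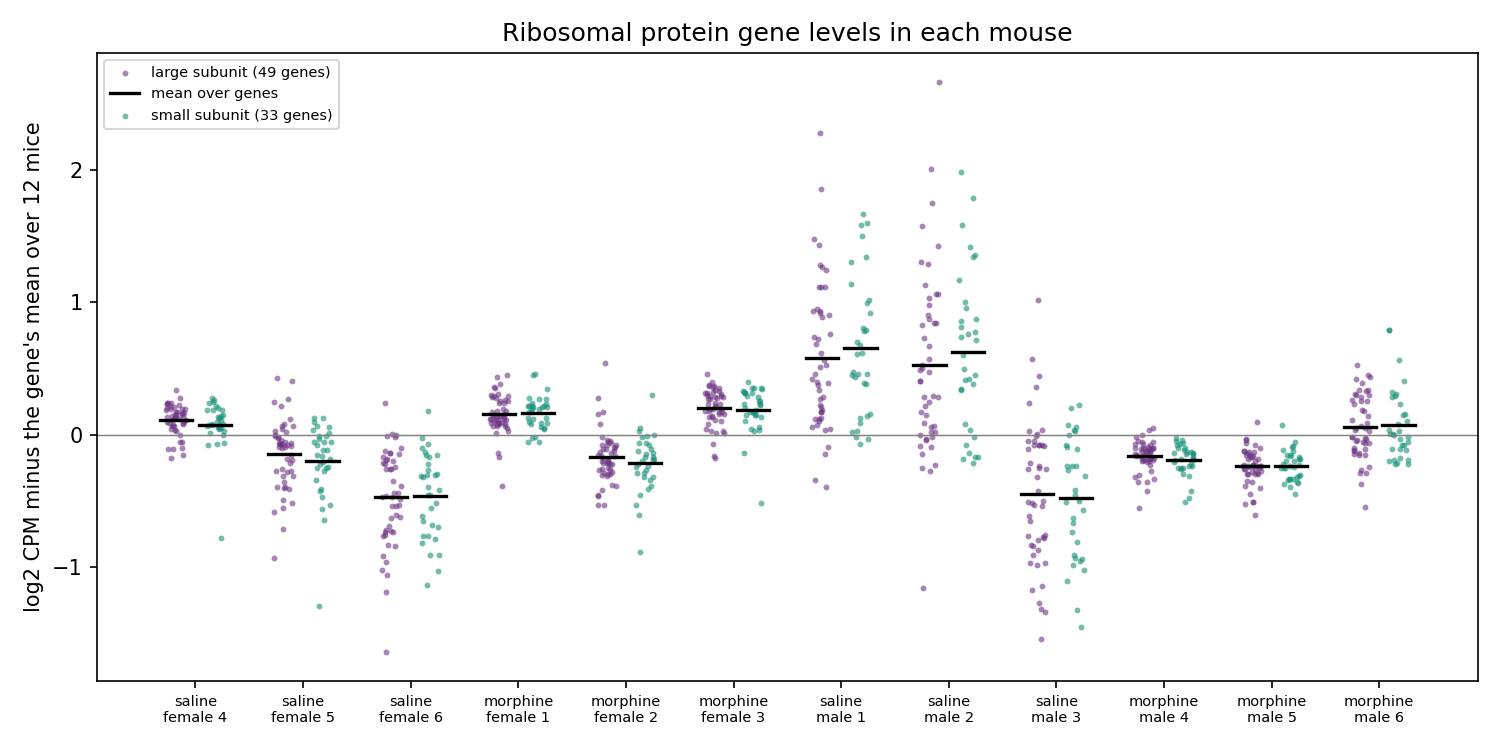
Level of each of the 82 tested members in each mouse, as log2 CPM minus the gene's mean over the 12 mice. Points are genes of the large (49) and small (33) subunit and black bars are their means, which lie side by side in every mouse. Saline males 1 and 2 stand highest on average (0.61 and 0.57) and saline male 3 and saline female 6 lowest (-0.46 and -0.47).

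Does morphine change these genes in females? The sign of the change was nearly uniform, but most of the changes were small against the spread. The log2 fold change of morphine over saline was positive for 80 of the 82 members, against 48.2% of all 18109 genes tested, and its median was 0.20, against -0.01 over all genes. The median was 0.20 for the large and 0.21 for the small subunit. DE genes here are those that changed by more than 0.26 on the log2 scale with an unadjusted p under 0.05. By that rule 3 members rose, all of the large subunit, and none fell, against 0.928% of all genes higher and 0.884% lower. None had an adjusted p under 0.05 by the quasi-likelihood test of edgeR, and the smallest adjusted p was 1.00. For no member did the levels of the treatments separate without overlap, while 2.78% of all genes were higher in every morphine female.

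The 3 were *Rpl36*, which encodes a small protein of the large subunit, and *Rplp1* and *Rplp2*, which encode the acidic P proteins of the stalk. *Rpl36* (chr17:56613416-56614243) had 8.42, 4.95, and 3.00 CPM in saline females 4, 5, and 6, and 12.9, 6.57, and 8.51 CPM in morphine females 1, 2, and 3. Morphine female 2 lay below saline female 4. The log2 fold change was 0.77 ± 0.34 (SE), at an unadjusted p of 0.0495 in the quasi-likelihood test of edgeR. *Rplp1* (chr9:61913284-61914542) had 34.9, 23.7, and 18.5 CPM in the saline and 46.4, 28.1, and 37.1 CPM in the morphine females, a log2 fold change of 0.53 ± 0.23. *Rplp2* (chr7:141447370-141451585) had 30.8, 25.01, and 19.8 CPM and 41.1, 27.6, and 33.4 CPM, a log2 fold change of 0.43 ± 0.18. In all 3 genes the 6 mice stood in the same order, with morphine female 1 highest and saline female 6 lowest. The remaining gene of the stalk, *Rplp0*, which anchors the P1 and P2 proteins, had a log2 fold change of 0.34 ± 0.19 that did not pass.

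The small subunit members with the largest values, *Rps28* at 0.54 ± 0.25, *Rps29* at 0.52 ± 0.27, and *Rps15* at 0.45 ± 0.27, did not pass either. Among those near 0 were *Rpl5*, which binds the 5S rRNA, at 0.02 ± 0.10, *Rps4x* at 0.02 ± 0.12, *Rps15a* at 0.07 ± 0.09, and *Rps25* at 0.07 ± 0.12. The 2 negative values were *Rpl30* at -0.11 ± 0.14 and *Rpl13a* at -0.24 ± 0.19. Of the remaining members picked by p or size, *Rpl41* had 0.39 ± 0.18 and *Rpl8* 0.43 ± 0.22. The count of called members depended on single mice. It was 42 without saline female 4, where 5.62% of all genes were called higher, and 29 without morphine female 2, where 2.14% were. It was 0 without saline female 5 (114 of 18582 genes higher), saline female 6 (123 of 18485), morphine female 1 (74 of 18623), or morphine female 3 (167 of 18722). With 83 members tested in each of these, a count of 0 was near the share of all genes. The median log2 fold change ran from 0.09 (without saline female 6) to 0.35 (without saline female 4).

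In males the direction was the opposite. The log2 fold change was negative for 81 of the 82 members, against 62.4% of the 18166 genes tested, and its median was -0.37, against -0.06 over all genes. It was -0.34 for the large and -0.50 for the small subunit. By the DE rule 8 members fell, 5 of the large and 3 of the small subunit, and none rose, against 1.07% of all genes lower and 1.92% higher. None had an adjusted p under 0.05 by edgeR. In 12 members every morphine male lay below every saline male, as did 4.06% of all genes. Scaling by total counts moved the median of all genes from -0.06 to 0.06 and that of the members from -0.37 to -0.25, with 71 members negative and 3 called lower.

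The 8 fell into 2 kinds of pattern. In *Rpl36* and *Rps16* the saline males were far apart. *Rpl36* had 46.5, 60.9, and 3.77 CPM in saline males 1, 2, and 3, and 7.40, 6.23, and 12.0 CPM in morphine males 4, 5, and 6. Saline male 3 was thus below every morphine male, and the log2 fold change was -2.11 ± 0.85, the lowest of any member. *Rps16* had 72.1, 81.7, and 36.3 CPM, and 39.4, 36.0, and 43.3 CPM, a log2 fold change of -0.68 ± 0.29.

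In the other 6 the groups did not overlap. *Rpl27a* (chr7:109519147-109522367) had 79.6, 74.7, and 50.6 CPM in the saline and 44.5, 45.7, and 44.1 CPM in the morphine males, with a log2 fold change of -0.62 ± 0.18, the smallest p of the members in males. *Rps13* (chr7:116331505-116334195) had 84.9, 98.2, and 60.5 CPM and 54.2, 52.1, and 55.8 CPM, a log2 fold change of -0.59 ± 0.18. For both genes the morphine males lay within a narrow range, and saline male 3 was the nearest to them. *Rps20* had 93.4, 91.7, and 63.5 CPM and 56.0, 57.7, and 62.4 CPM, a log2 fold change of -0.50 ± 0.17. *Rpl15*, whose start is printed above, had 146, 150, and 129 CPM and 118, 116, and 113 CPM, a log2 fold change of -0.30 ± 0.11. *Rpl10*, which completes the peptidyl transferase centre late in assembly, had 197, 188, and 153 CPM and 142, 141, and 149 CPM, a log2 fold change of -0.32 ± 0.13. In these 3 genes too, saline male 3 was the saline male nearest to the morphine males.

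The sixth was *Rpl3l*, a paralog of *Rpl3* known from striated muscle, with 0.864, 1.20, and 0.643 CPM in the saline and 0.565, 0.426, and 0.413 CPM in the morphine males and a log2 fold change of -0.96 ± 0.33. The 4 skeletal muscle markers, none of them at 0 in all libraries, summed to 2.62, 26.8, and 0.460 CPM in saline males 1, 2, and 3 and to 1.40 to 2.43 CPM in the morphine males. *Rpl3l* was highest in saline male 2, the mouse with the highest muscle markers, and the part of these markers in its result was not tested. Its log2 fold change was -0.70 without saline male 2, -0.84 without morphine male 5, and -0.88 without morphine male 6, and it was called in none of these.

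The other 6 members without overlap that were not called were *Rpl39*, *Rpl36a*, *Rps3a1*, *Rpl22*, *Rps27l*, and *Rpl23*, with log2 fold changes from -0.34 to -0.15. Of the 12 without overlap, 3 were on the X chromosome, which holds 4 of the 82 tested members. The largest differences that were not called were those of the stalk and of small subunit genes. *Rplp1* had 141, 157, and 15.3 CPM in saline males 1, 2, and 3 and 34.1, 27.2, and 50.9 CPM in the morphine males. *Rplp2* had 81.0, 99.4, and 18.1 CPM and 26.3, 23.0, and 34.6 CPM. *Rps29* had 156, 170, and 22.8 CPM and 36.6, 35.9, and 60.6 CPM. In each of these saline male 3 was the lowest male and saline males 1 and 2 the highest. Their log2 fold changes were -1.47 ± 0.74, -1.24 ± 0.55, and -1.39 ± 0.66, beside -1.28 ± 0.60 for *Rps28* and -1.16 ± 0.51 for *Rps21*. Values nearest to 0 were those of *Rpl26* at 0.06 ± 0.32, the one positive member, *Rpl7l1* at -0.02 ± 0.15, *Rpl21* at -0.08 ± 0.12, *Rps27* at -0.07 ± 0.12, and *Rps10* at -0.06 ± 0.51. With scaling by total counts, *Rpl7l1*, *Rpl21*, *Rps27*, and *Rps10* were above 0.

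**Figure D3:**
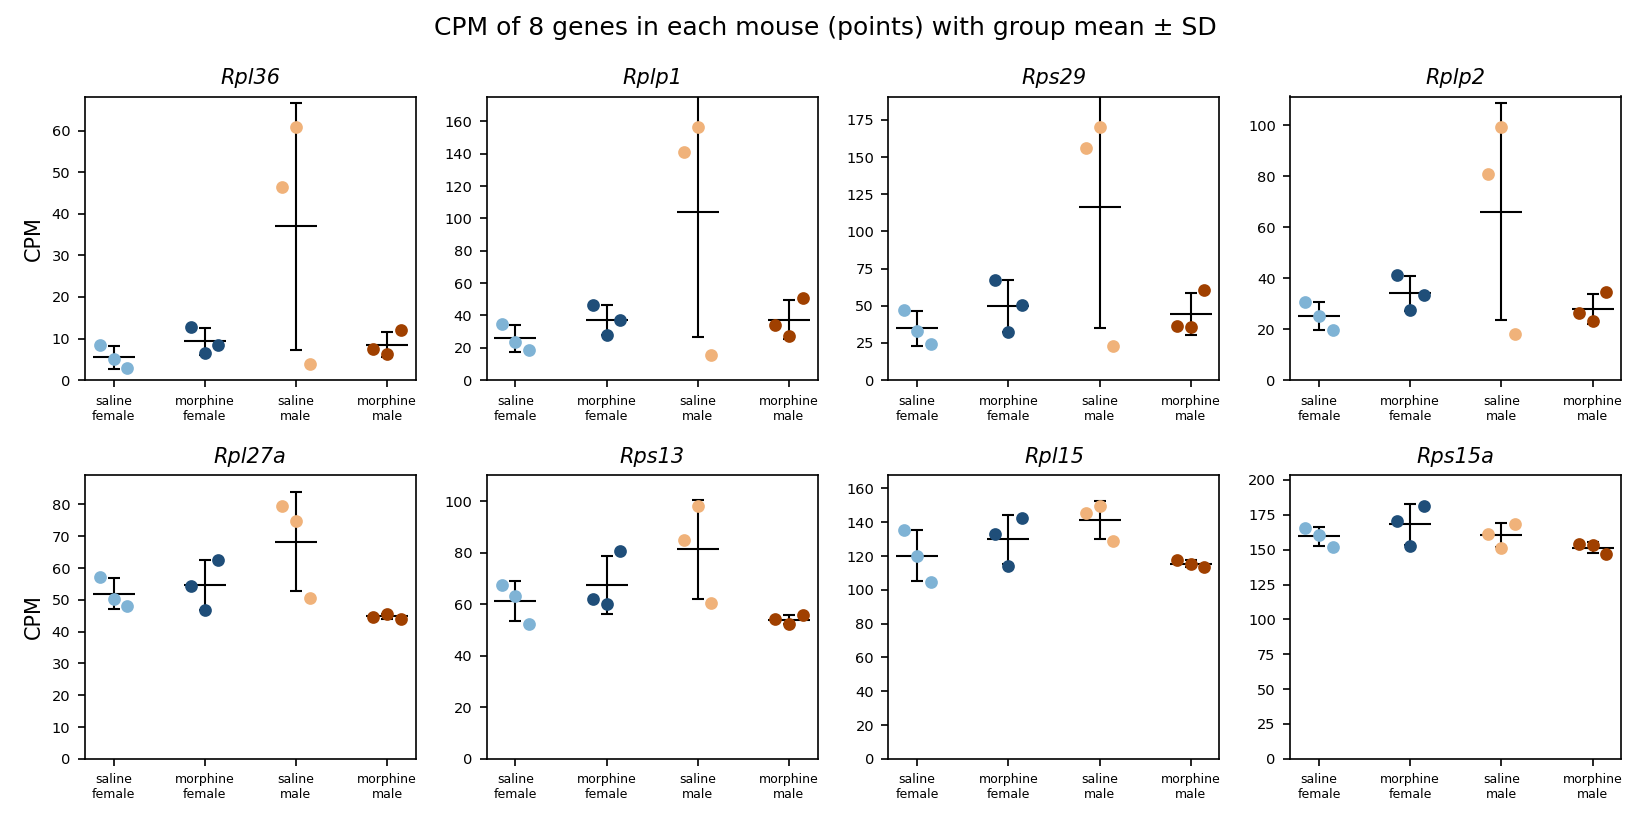
CPM of 8 members in each of the 12 mice, on linear axes from 0, with the mean and 1 SD of each group of 3. In *Rpl36*, *Rplp1*, *Rps29*, and *Rplp2* saline males 1 and 2 stand far above the other 10 mice, in *Rpl27a*, *Rps13*, and *Rpl15* the 3 morphine males lie together below the saline males, and *Rps15a* stays between 147 and 182 CPM.

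In males, 76 of 82 members stayed negative without saline male 1 alone, and 80 of 84 without saline male 2 alone. Of the settings run, the median turned positive only with both of these mice left out. With them left out, a setting added after the data were seen that sets 1 saline male against 3 morphine males and takes it to vary as they do, 30 members were called higher and 6 lower of 85 tested. In the same setting 17% of all genes were called higher and 14% lower, so the members called lower were fewer than that share. The median log2 fold change was then 0.30. *Rplp1* was at 1.26 ± 0.33 and *Rpl36* at 1.15 ± 0.39 in that setting, and *Rpl27a*, *Rps13*, *Rps20*, *Rpl15*, and *Rpl10* were at -0.21, -0.20, -0.15, -0.19, and -0.12, none of them called. Without saline male 3, 55 of 84 members were called lower, 47 of them with an adjusted p under 0.05 by edgeR, and the median was -0.57. Of all genes 18.8% were then called lower, and 2141 genes in either direction passed the adjustment. Without morphine male 6 the count was 3, against 0.722% of all genes lower, and the median -0.48. The 3 were *Rpl27a* at -0.61 ± 0.24, *Rps13* at -0.62 ± 0.24, and *Rps20* at -0.56 ± 0.22. Without that library *Rpl15* was at -0.29 ± 0.15, *Rpl10* at -0.36 ± 0.17, *Rps16* at -0.76 ± 0.35, and *Rpl36* at -2.45 ± 1.05, none of them called. The stalk genes *Rplp1* and *Rplp2* were at -1.77 ± 0.89 and -1.43 ± 0.67 without it, and *Rpl26* was at -0.01 ± 0.38. The count called lower was 4 without saline male 1 (107 of 18638 genes) and 1 without saline male 2 (106 of 18637). It was 3 without morphine male 4 (70 of 18641) and 0 without morphine male 5 (55 of 18621). The summed level of 6 neuron markers was 4942 to 5957 CPM in the saline and 4599 to 4646 CPM in the morphine males, without overlap. That of 4 choroid plexus markers was 255 to 514 CPM and 406 to 814 CPM. None of these markers were at 0 in all libraries. The 6 oligodendrocyte markers summed to 38056 to 58164 CPM in the saline and 32307 to 40878 CPM in the morphine males. The 4 cerebellar granule cell markers summed to 24.9 to 28.2 CPM in the saline and 36.05 to 67.4 CPM in the morphine males, without overlap. The sums of the astrocyte, microglia, endothelial, meningeal fibroblast, and red blood cell markers overlapped between the male groups. In females the neuron and granule cell sums overlapped, and the choroid plexus sum was 8.19 to 453 CPM in the saline and 26.5 to 160 CPM in the morphine mice. The part of these cell types in the result was not tested.

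The sexes were compared directly by an interaction term, here the male log2 fold change less the female one. Of 84 members tested, 18 were called lower and none higher, against 1.33% of 19027 genes lower and 1.61% higher. The value was negative for 83 of the 84, against 54.4% of all genes, with a median of -0.55 (-0.03 over all genes). None had an adjusted p under 0.05 by edgeR, where the smallest was 0.985. The lowest values were those of *Rpl36* at -2.86 ± 1.00, *Rplp1* at -1.99 ± 0.84, *Rps29* at -1.90 ± 0.78, *Rps28* at -1.81 ± 0.71, and *Rplp2* at -1.65 ± 0.62. The smallest p, 0.00922, was that of *Rps20* at -0.68 ± 0.22. The 18 were 9 of the large and 9 of the small subunit. The one positive value was *Rpl32l* at 1.63, a pseudogene with 0 to 45 counts per library. Without saline male 3, 56 of 85 were called, 41 of them with an adjusted p under 0.05, while 18.4% of all genes were called lower. Without morphine male 6, 17 of 84 were called lower, against 1.62% of all genes, with a median of -0.66. The count called lower was 29 without saline female 4, against 2.14% of all genes. It was 7 without saline male 1 (127 of 19464 genes), where 1 member was called higher (236 genes). It was 8 without morphine male 4 (137 of 19500 genes) and 7 without morphine female 3 (143 of 19570). It was 6 without saline female 6 (141 of 19424) or without morphine male 5 (140 of 19465), and 5 without saline male 2 (137 of 19469). With saline males 1 and 2 left out the median turned to 0.11, and 4 members were called higher and 5 lower of 86, below the 10.6% of all genes higher and 7.21% lower.

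**Figure D4:**
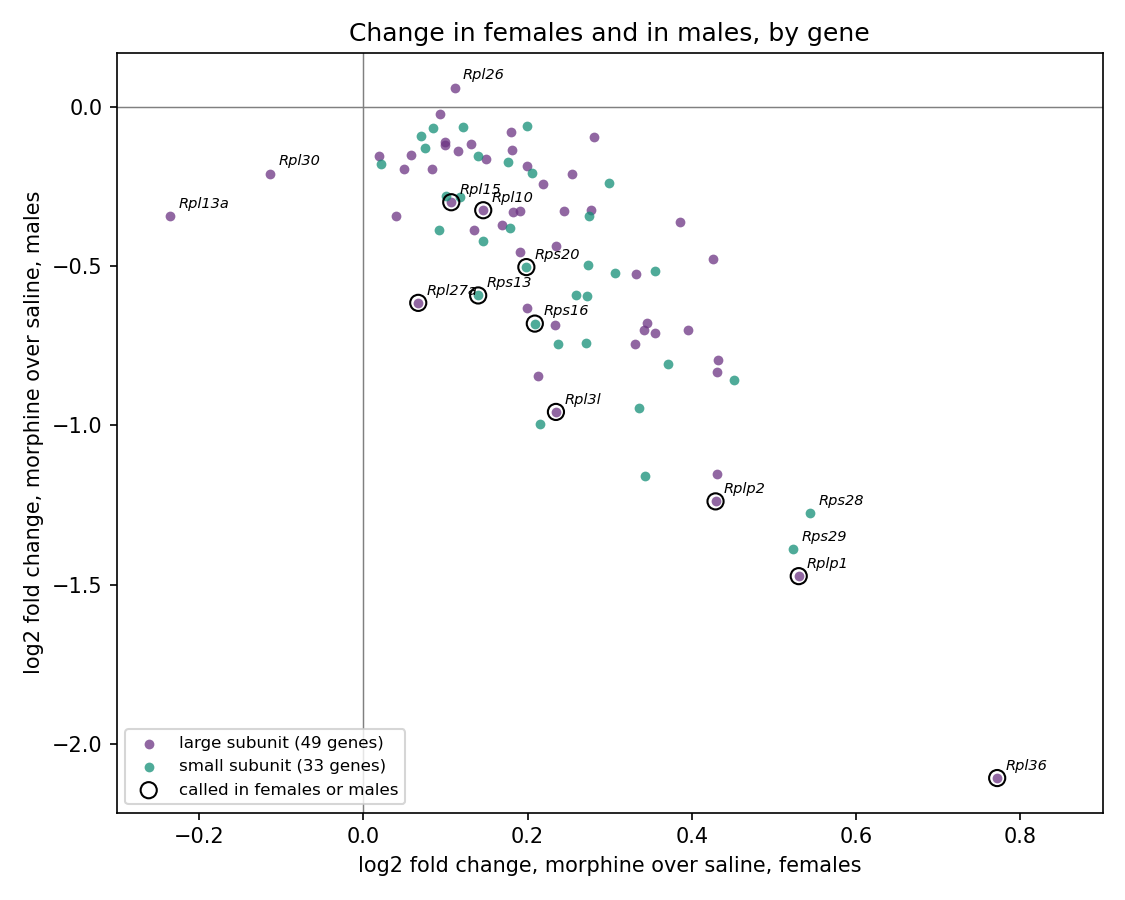
Log2 fold change of morphine over saline in females (horizontal) against that in males (vertical), 1 point per tested member, on linear axes. Nearly all points lie right of 0 in females and below 0 in males, and *Rpl36* is the farthest at 0.77 and -2.11. Black circles mark the members called in either sex.

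Across the 82 members, the changes in females and in males had a Pearson r of -0.76 and a Spearman rho of -0.71, so that members with larger values in females had lower values in males. These are genes measured in the same libraries and not independent points. With both sexes in 1 fit and sex as a covariate, no member was called (0 at an unadjusted p under 0.05 by edgeR, and 0 by exactTest and by DESeq2), against 0.607% of 18608 genes higher and 0.580% lower. The value was negative for 60 of the 82 members, against 57.4% of all genes, with a median of -0.09 (-0.02 over all genes). The members with the smallest p were *Rpl13a* at -0.27 ± 0.14, *Rpl27a* at -0.26 ± 0.14, *Rps13* at -0.21 ± 0.15, *Rpl3l* at -0.35 ± 0.27, and *Rpl10a* at -0.30 ± 0.27, and none passed. With saline males 1 and 2 left out, 32 members were called higher and 1 lower of 84, against 9.58% of all genes higher and 2.11% lower, with a median of 0.26.

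The spread between mice differed from gene to gene. The SD of log2 CPM within groups had a median of 0.36 over the members and 0.28 over all genes tested, and it ran from 0.09 in *Rps15a* to 1.20 in *Rpl36*. *Rps15a* ran from 147 CPM in morphine male 6 to 182 CPM in morphine female 3, a ratio of 1.24. The ratio of highest to lowest mouse was 20.3 for *Rpl36* and 10.3 for *Rplp1*. The 27 members with the smallest spread, 16 of the large and 11 of the small subunit, had a median GC content of 47.9%, a median exon length of 2687 bases, and a median ratio of highest to lowest mouse of 1.45. In the 27 with the largest spread, 17 of the large and 10 of the small subunit, these were 54.0%, 1535 bases, and 4.51. Of the latter, 25 were highest in saline male 1 or 2, against 6 of the 27 with the smallest spread. The spread used here includes the saline males, so these counts describe the same libraries again.

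Over the 82 members, GC content and SD within groups had a Pearson r of 0.61 and a Spearman rho of 0.63. The r was 0.55 over the 49 large and 0.71 over the 33 small subunit members. For exon length and SD the r was -0.41, and for level per kb -0.16. GC content and the log2 fold change had an r of 0.50 in females and -0.46 in males. *Rpl23a*, with a GC content of 47.6% and a SD of 0.96, and *Rps2*, with 56.7% and 0.25, were exceptions. With offsets for GC content and exon length the median log2 fold change was 0.15 in females and -0.24 in males, with 77 of the 82 members positive in females and 75 negative in males. The part of GC content in these differences was not tested beyond that.

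**Figure D5:**
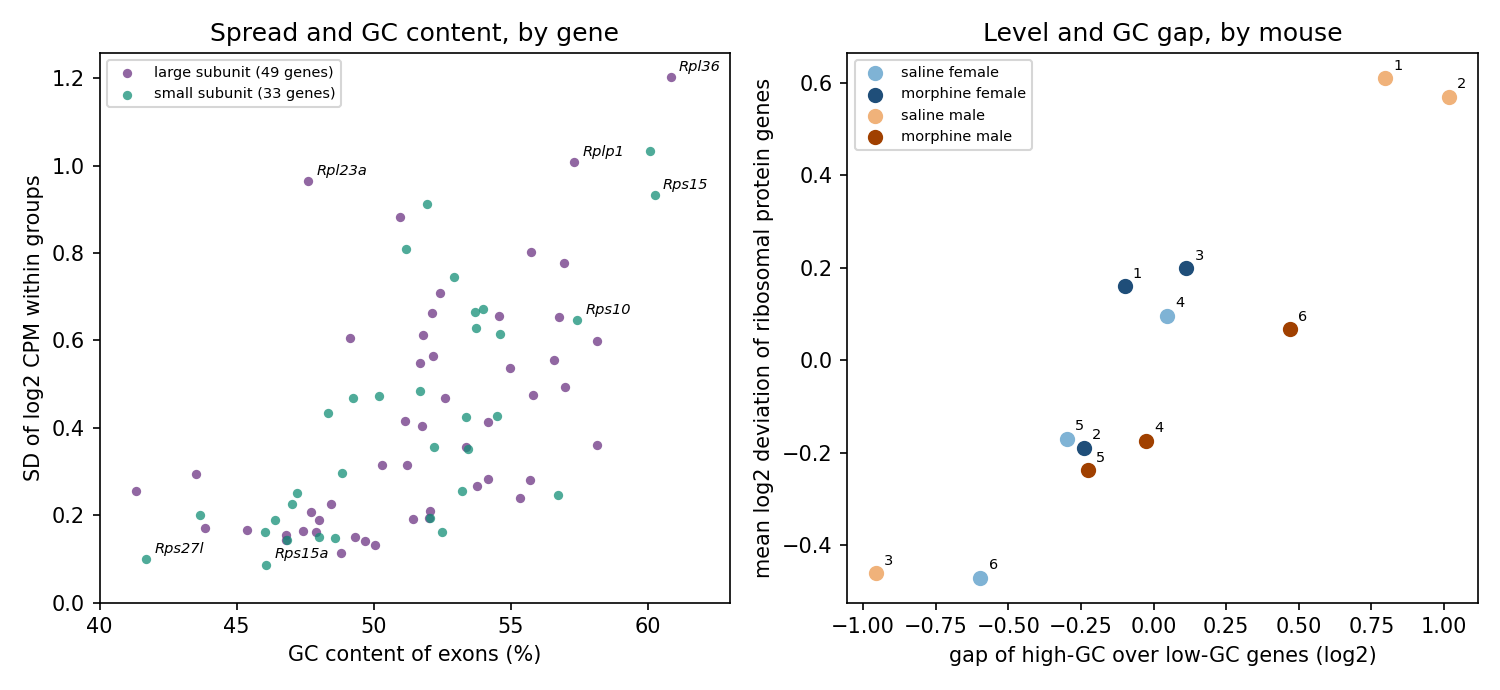
Left, SD of log2 CPM within groups against the GC content of the exons, 1 point per tested member of the large (49) and small (33) subunit. Right, mean log2 deviation of the members against the gap of high-GC over low-GC genes, 1 point per mouse, numbered by replicate. Members with a high GC content varied more, and the mice with the largest gaps, saline males 1 (0.80) and 2 (1.02), had the highest member levels.

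Gene copies limit what some counts mean. Of the 84 protein-coding members, 76 shared at least 1 stretch of 100 bases, the read length, exactly with a transcript of another gene, and in 20 this held for over 50% of the stretches. The median share was 24.4%. How reads with more than 1 position were counted is not given in the sources used here. The share was 80.1% in *Rpl24*, which had 0.109 to 0.705 CPM, 57.8% in *Rpl30*, and 33.0% in *Rpl13a*. In *Rps10* it was 22.3%, below the median share. Where stretches are shared, the levels are uncertain. *Rps6* had 83.6% shared and a level of 93.2 to 162 CPM. Whether shared sequence set any of these levels was not tested. Across 81 members with a value, the share and the SD within groups had an r of -0.02.

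Several members are paralogs of another member. *Rpl22l1* was at 35.0% to 68.9% of the level per kb of *Rpl22*, with the lowest ratio in saline male 1 and the highest in saline male 3. *Rps27l* was at 19.7% to 27.5% of *Rps27*, and *Rpl7l1* at 13.3% to 18.9% of *Rpl7*. These 3 are broadly expressed, and the rank of each below its partner held in every mouse. *Rps4l*, annotated as a transcribed pseudogene, was at 0.574% to 7.64% of *Rps4x*, with 7.87 and 10.3 CPM in saline males 1 and 2 and 0.980 to 4.46 CPM elsewhere. *Rpl3l* was at 0.345% to 0.878% of *Rpl3*. *Rpl36al* had 4 to 13 counts and *Rpl39l* 0 to 7 counts per library, and neither passed the filter. *Rpl10l*, a retrogene known from testis, had 0 counts in all 12 libraries, as had the pseudogene *Rps12l1*. A count of 0 allows up to 3 counts, or 0.0656 to 0.110 CPM per library, and these limits cover counting error only. The other members that did not pass were the pseudogenes *Rpl32l*, *Rpl6l*, *Rps3a2*, and *Rps3a3*, at 0.116 to 0.325 CPM on average.

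Small subunit proteins under other symbols were those of *Fau*, a fusion with a ubiquitin-like protein, and *Rack1*. *Fau* had 95.2, 109.6, and 19.0 CPM in saline males 1, 2, and 3 and 26.9 to 43.1 CPM in the morphine males, with log2 fold changes of 0.30 ± 0.20 in females and -1.18 ± 0.58 in males. *Rack1* had 198, 209, and 84.4 CPM and 109 to 140 CPM, with 0.21 ± 0.15 and -0.42 ± 0.32. *Fau* and *Rack1* were thus high and low in the same mice as the members. Neither gene was called in either sex.

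By their medians, the other lists of the pathway were less far from 0 than the members. Of all genes, 0.928% were called higher in females, 1.07% lower in males, and 1.33% lower in the interaction. Of 31 ribosome assembly factors none were called in females and 2 fell in males, *Sbds* at -0.40 ± 0.14, which releases a factor from the new large subunit, and *Gar1* at -0.45 ± 0.17, a protein of H/ACA particles. Their medians were 0.03 and -0.15. Of 16 translation factors and other genes with the same kind of 5' tract none were called in females. In males 3 of the 16 fell, beside 8 of the 82 members. These were *Tpt1*, translationally controlled tumor protein, at -0.45 ± 0.12, *Eef1b2* of the elongation factor complex at -0.30 ± 0.11, and *Naca*, which binds nascent chains, at -0.29 ± 0.11. *Tpt1* had 423, 421, and 467 CPM in saline males 1, 2, and 3 and 302, 337, and 326 CPM in morphine males 4, 5, and 6. Saline male 3 was the highest male for *Tpt1*. The medians of this list were 0.04 and -0.16. Of 7 RNAs that host small nucleolar RNAs 1 rose in females, *Snhg8* at 0.69 ± 0.26, and none were called in males, where *Snhg8* was at -1.13 ± 0.56 and the median at -0.18. None of 12 genes of RNA polymerase I were called in either sex, with medians of 0.07 and -0.05, and none of 19 genes of mTORC1 and its translational regulators, with medians of -0.02 and -0.01. In the interaction 1 of the 16 translation factors and 1 of the 7 host RNAs were lower, and none of the assembly factors, RNA polymerase I, or mTORC1 genes were called. No gene of these lists had an adjusted p under 0.05 by edgeR.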

How the data were processed

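RNA of 12 mouse brainstems was measured, 3 mice per treatment and sex. The authors used scruff and Trimmomatic on the reads, STAR for alignment (mm10), and featureCounts for counting over Ensembl GRCm38 exons. The deposited values are whole-number counts per gene, not normalized, with library totals of 27850565 to 48097947. The settings for strand and for reads with several positions are not given in the sources used here. The labels give treatment, sex, and replicate number, and name brainstem, while the description of extraction names spinal cords. Dam is in no label and was not used.

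All genes that passed filterByExpr were tested in R (4.3.3) with edgeR (4.0.16), by its quasi-likelihood test after TMM scaling, in females, in males, in both sexes with sex as a covariate, and for the interaction of treatment and sex. DE genes changed by more than 0.26 on the log2 scale, up or down, with p under 0.05 before adjustment, and p values were adjusted by Benjamini-Hochberg over all genes tested. P values measure the spread between 3 or 6 mice per group. Levels are CPM with TMM factors over the 12 libraries, and logs used a prior count of 2. Exon length, GC content, and positions came from GENCODE M21 (GRCm38), promoter windows from RefSeq (GRCm38.p6), and shared 100-base stretches from an exact search of annotated transcripts. No 2 libraries of a group agreed within sampling noise (chi-square per gene at least 12.3). The fits were run on simulated data in which every gene had the same spread between mice beyond counting error. That setting was simpler than these libraries and does not test their p values. The alternatives were exactTest, DESeq2 1.42.0, its size factors, scaling by total counts, other filters on low counts, loess offsets (span 0.5) for GC content and exon length, a threshold on p alone, other covariates, and leaving out mice.

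The members and lists were chosen with earlier results of these data known. Named members are those called, the 5 with the smallest p in each comparison, the 5 highest and 5 lowest in level, the 3 highest and 3 lowest changes per subunit and sex, those with a sign opposite to the median, the paralogs, *Fau* and *Rack1*, and called genes of the other lists. Other names were chosen after their values were seen. Protein sequences were not used here, and 2 genes that the rule names are not reported here.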

Additional observations from a re-analysis of the deposited data

Results flagged for a closer look

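For 18 of 84 members the interaction term of edgeR was negative at an unadjusted p under 0.05, against 1.33% of all genes lower and 1.61% higher. None of them passed the adjustment over all genes, and leaving out 1 mouse gave 5 to 56 calls. The difference, males minus females on the log2 scale, was -2.86 for *Rpl36*, -1.99 for *Rplp1*, -1.65 for *Rplp2*, -1.17 for *Rpl3l*, -1.04 for *Rpl10a*, -0.67 for *Rpl27a*, -0.65 for *Rpl12*, -0.45 for *Rpl10*, and -0.39 for *Rpl15* of the large subunit. Of the small subunit it was -1.90 for *Rps29*, -1.81 for *Rps28*, -1.49 for *Rps21*, -0.999 for *Rps12*, -0.97 for *Rps7*, -0.87 for *Rps16*, -0.71 for *Rps13*, -0.68 for *Rps20*, and -0.38 for *Rps27l*. With saline males 1 and 2 left out, 5 members were called lower and 4 higher of 86, below the shares of all genes (7.21% and 10.6%).

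Single mice stood apart from the other 5 of their treatment in *Rpl39l* and *Rps13*, by the gap to the nearest mouse over the range. *Rpl39l* was at 0.204 CPM in saline female 4, where it had 7 counts. *Rps13* was at 80.4 CPM in morphine female 3. Chance alone gives such a gap in about 1 of 20 groups, so some are found by chance when many groups are searched. The mice of a treatment were of both sexes here.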

How the results depend on the processing

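The sign of the median log2 fold change held in females (0.09 to 0.35), males (-0.57 to -0.26), and the interaction (-0.86 to -0.42) whichever single mouse was left out. With both sexes together it ran from -0.20 to 0.00079, the latter without saline male 1. Counts of called members were less stable, and the cause was not tested. Leaving out 1 mouse gave 0 to 42 in females, 0 to 55 in males, 0 to 2 with both sexes together, and 5 to 56 in the interaction. In females, exactTest called 5 members higher (190 of 18109 genes), DESeq2 6 (181), and offsets for GC content and exon length 6 (101). The fit of all 12 mice called 0 (67 higher and 151 lower of 19027 genes). No filter on low counts gave 30 calls, 29 higher and 1 lower, against 590 and 504 of 34716 genes. There 5 members and 77 genes had an adjusted p under 0.05 by edgeR. In males, exactTest called 14 lower (197 of 18166 genes), scaling by total counts 3 (70), and the fit of all 12 mice 17 (394 of 19027). No filter gave 19 lower, against 478 of 34805 genes. In the interaction no filter gave 42 lower, against 1058 of 37483 genes. With saline males 1 and 2 left out, the males gave 36 calls and a median of 0.30, both sexes together 33 and 0.26, and the interaction 9 and 0.11, with the shares of all genes called in these settings given in the comparisons above. Members near 0 changed sign. Leaving out 1 mouse gave -0.05 to 0.10 for *Rpl5*, -0.03 to 0.15 for *Rps25*, and -0.11 to 0.13 for *Rps4x* in females, and in males -0.19 to 0.45 for *Rpl26*, -0.09 to 0.07 for *Rpl7l1*, -0.52 to 0.28 for *Rps10*, and -0.12 to 0.00417 for *Rps27*. In males, scaling by total counts gave 0.05 for *Rpl21*, 0.10 for *Rpl7l1*, and 0.06 for *Rps10* and *Rps27*. The offsets gave 0.00125 for *Rpl7l1*, 0.29 for *Rps10*, and 0.06 for *Rps27*, and the fit of all 12 mice gave 0.00311 for *Rpl7l1*. With the replicate number as a block (replicate block, both sexes together), 0 of 85 members were called and the median was -0.04. Same-numbered saline and morphine mice had correlations of -0.36 to 0.18, so the numbers were not taken to pair mice. Over the named members and the settings other than left-out single mice, 106 values in females kept their direction and side of the threshold, 14 passed newly, and 6 no longer passed. In males these were 114, 22, and 18, and 8 changed direction. With both sexes together all 50 kept both. With single mice left out, 56 values in females kept both, 10 passed newly, 12 no longer passed, and 6 changed direction. In males these were 63, 5, 30, and 10. With both sexes together 53 kept both and 7 passed newly. *Rpl24* and *Rpl3l*, under 1 CPM on average, are limited by depth.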
